A study of Homo sapiens with 2 samples.

Results

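The 40 genes described here encode proteins that copy DNA or serve cells in S phase, and they were taken by symbol from the 16251 genes of a single-cell count matrix, where all 40 had a row. The study treated the cell line MDA-MB-453, which grows from a human breast tumour and is labelled triple-negative, with IL1β + TNFα at 10 ng/ml or with water as vehicle. The labels and methods give 24 hours of treatment, while a legend of the study gives a longer time. Each condition was 1 culture and 1 library, so no p-value is given, and no difference has a replicate check. Transcript 3′ ends were counted by unique molecular identifiers (UMIs) in 3163 cytokine-treated and 2822 vehicle cells. The libraries summed to 69592446 and 58587996 UMIs, with medians of 21508 and 20249 UMIs per cell, and 8 cell barcodes occurred in both. Levels are UMIs per 1000000 UMIs (CPM), and ratios are cytokine-treated over vehicle on the log2 scale. Intervals are exact, at 95%, and reflect counting error alone, not the spread between cultures. A gene counted as measured when either library had it at CPM 5 or above, and as lower when it was at least 2-fold lower with its interval on that side.

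A replication origin is licensed in G1, when CDC6 helps to load the MCM2 to MCM7 helicase ring onto DNA, and geminin (GMNN) blocks further loading once S phase has begun. CDC45 and GINS then switch the helicase on, polymerase α with its primase starts each new strand, and the sliding clamp PCNA holds the copying polymerases on their template. Most of these genes are transcribed as cells leave G1, through E2F factors that the retinoblastoma protein RB1 holds in check in resting cells. Of the markers of the labelled line, KRT8, KRT18, FOXA1, SPDEF and ERBB2 were measured, while ESR1 and PGR were not among the rows used here. Of the markers of other cell types, COL1A1 stood at 20.1 CPM in the cytokine-treated and 20.9 CPM in the vehicle library, and the other lymphoid, myeloid, endothelial and erythroid markers found stood at 1.82 CPM or less.

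Promoters are shown because the 40 genes moved together and E2F factors bind DNA. RefSeq start sites on GRCh38.p14 were matched by symbol for 32 of the 40 genes, of which 10 had several windows, and each window ran from 250 bases before to 50 bases after a start. The E2F words TTTGGCGC, TTTCCCGC, TTTGCCGC and TTTCGCGC, read on both strands, occurred in 20 of the 32 genes (62.5%) and in 1090 of 27305 genes in all (3.99%). By window, 21 of 45 held an E2F word (46.7%), against 3.31% of all 35116 windows, and in 3 windows of these genes E2F words overlapped each other. TTTGAA, the CHR element of many genes of late cell cycle, occurred on either strand in 3 of the 32 genes (9.38%) and in 18.2% of all genes, and overlapped no E2F word. Below are the first listed windows of the genes with the largest whole-library difference, BLM (chr15:90717096-90717395, plus strand), RRM2 (chr2:10122489-10122788, plus strand) and EXO1 (chr1:241847954-241848253, plus strand), and with the smallest, CASP8AP2 (chr6:89829630-89829929, plus strand), UBR7 (chr14:93207006-93207305, plus strand) and TIPIN (chr15:66386668-66386967, minus strand). Capitals mark E2F words.
BLM: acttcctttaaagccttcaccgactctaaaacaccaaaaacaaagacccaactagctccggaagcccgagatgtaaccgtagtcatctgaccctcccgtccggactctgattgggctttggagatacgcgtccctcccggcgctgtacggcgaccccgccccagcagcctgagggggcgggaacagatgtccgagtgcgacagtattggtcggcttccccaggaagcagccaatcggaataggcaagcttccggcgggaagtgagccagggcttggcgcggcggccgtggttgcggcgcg
RRM2: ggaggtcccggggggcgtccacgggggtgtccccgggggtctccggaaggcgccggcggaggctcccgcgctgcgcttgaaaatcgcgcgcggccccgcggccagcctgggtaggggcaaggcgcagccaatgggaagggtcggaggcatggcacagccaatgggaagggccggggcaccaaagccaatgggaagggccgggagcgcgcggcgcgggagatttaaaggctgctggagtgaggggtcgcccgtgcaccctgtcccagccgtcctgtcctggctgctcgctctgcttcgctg
EXO1: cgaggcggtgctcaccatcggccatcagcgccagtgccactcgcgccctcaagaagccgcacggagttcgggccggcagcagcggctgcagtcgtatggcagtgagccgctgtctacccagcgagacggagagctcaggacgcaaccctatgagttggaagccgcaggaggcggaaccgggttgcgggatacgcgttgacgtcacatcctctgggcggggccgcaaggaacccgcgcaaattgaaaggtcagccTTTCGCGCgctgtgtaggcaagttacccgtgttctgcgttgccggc
CASP8AP2: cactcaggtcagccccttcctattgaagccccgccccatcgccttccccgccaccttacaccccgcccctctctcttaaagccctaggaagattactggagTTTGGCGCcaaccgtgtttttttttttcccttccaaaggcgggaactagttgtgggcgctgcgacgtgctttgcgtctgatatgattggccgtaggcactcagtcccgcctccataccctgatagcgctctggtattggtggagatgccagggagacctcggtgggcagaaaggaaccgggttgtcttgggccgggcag
UBR7: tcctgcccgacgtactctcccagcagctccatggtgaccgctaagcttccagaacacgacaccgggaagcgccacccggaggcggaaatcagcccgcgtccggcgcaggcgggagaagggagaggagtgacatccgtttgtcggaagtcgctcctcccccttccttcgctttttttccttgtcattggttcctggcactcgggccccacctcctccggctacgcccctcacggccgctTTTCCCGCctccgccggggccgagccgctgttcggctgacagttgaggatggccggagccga
TIPIN: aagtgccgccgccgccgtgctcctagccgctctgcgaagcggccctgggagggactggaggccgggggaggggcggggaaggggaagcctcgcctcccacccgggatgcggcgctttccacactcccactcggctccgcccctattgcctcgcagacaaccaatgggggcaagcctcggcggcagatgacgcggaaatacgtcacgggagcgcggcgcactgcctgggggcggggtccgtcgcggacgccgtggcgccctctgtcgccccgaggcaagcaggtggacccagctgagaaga
The word in EXO1 began 4 bases after the start, that in UBR7 12 bases before it and that in CASP8AP2 149 bases before it. None of these words was in the windows shown for BLM, RRM2 and TIPIN, while another listed window of TIPIN held 2. The 20 genes with an E2F word had a median log2 ratio of -2.06 (-2.99 to -0.72) and the 12 without had -1.70 (-3.27 to -1.01), so the ranges overlapped. The counted reads came from transcript ends and do not show which start was used.

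Over whole libraries all 40 genes were lower in the cytokine-treated library, each with its interval below 0. Their summed level was 534 CPM (529 to 540) in the cytokine-treated and 1793 CPM (1782 to 1803) in the vehicle library, 3.35-fold lower (log2 ratio -1.75, -1.76 to -1.73). Of the 40 genes 37 were at least 2-fold lower, against 7.48% of the 9192 measured genes, and 0 were at least 2-fold higher, against 4.29%. The median of the 40 ratios was -2.01, with a range of -3.27 to -0.72, and that of all measured genes was -0.20. Of the 40 genes 9 reached CPM 5 in the vehicle library alone and had to be lower to be counted as measured, all 9 by 2-fold or more, and 28 of the other 31 were at least 2-fold lower. TMM and median of ratios scaling raised every whole-library ratio by 0.18 and 0.19, and all 40 stayed below 0 under each of 6 alternatives that gave whole-library ratios. The number of genes at least 2-fold lower fell from 37 to 30 with either of these scalings. MCM4, PRIM1, POLD3, USP1, NASP and SLBP were among those that no longer passed. The share of all measured genes under these scalings is not given here.

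**Figure D1:**
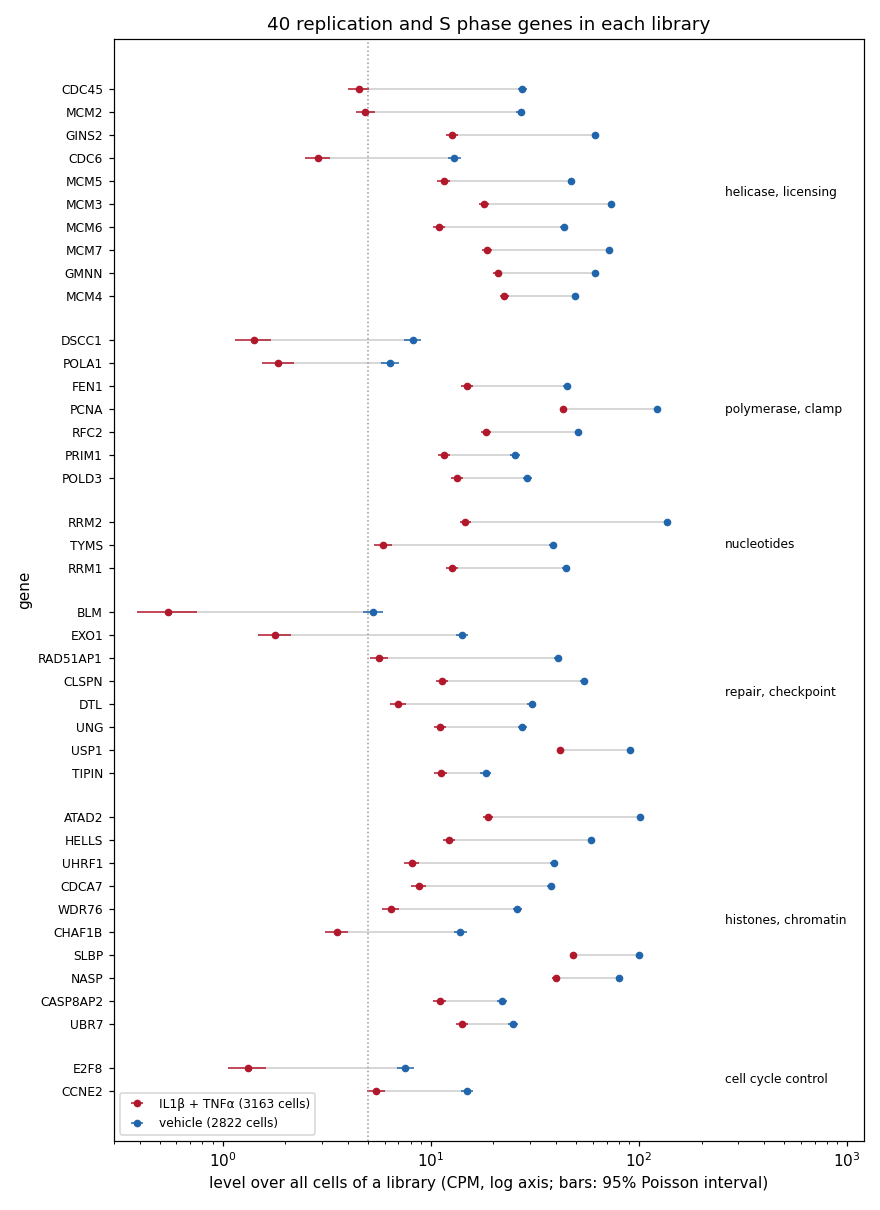
Level of each of the 40 genes over all cells of the cytokine-treated (red) and the vehicle library (blue) in CPM (log axis; bars are exact 95% Poisson intervals), grouped by role and ordered by ratio. Every red point lies left of its blue point, with RRM2 at 14.7 and 137 CPM and TIPIN at 11.2 and 18.3 CPM in the cytokine-treated and vehicle libraries. The dotted line marks CPM 5.

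Genes that supply deoxynucleotides had the lowest median of the 6 roles, -2.71 for 3 genes. RRM2, the regulated small subunit of ribonucleotide reductase, was at 14.7 CPM (13.8 to 15.6) in the cytokine-treated and 137 CPM (134 to 140) in the vehicle library, 9.33-fold lower. TYMS, which makes thymidylate, was at 5.92 and 38.8 CPM (log2 ratio -2.71, -2.87 to -2.56). RRM1, the large subunit of ribonucleotide reductase, was at 12.7 CPM in the cytokine-treated and 44.5 CPM in the vehicle library, with a ratio of -1.81. Both subunits of the enzyme were thus lower, the small subunit by more.

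All 10 genes of the helicase and of origin licensing (median -2.03) were at least 2-fold lower, against 7.48% of all measured genes. MCM2, CDC45 and CDC6 reached CPM 5 in the vehicle library alone and so had to be lower to be measured. Among the ring subunits MCM2 had the largest difference, at 4.86 CPM in the cytokine-treated and 27.1 CPM in the vehicle library (-2.48, -2.66 to -2.31), and MCM4 the smallest, at 22.6 and 49.6 CPM (-1.13). MCM3, MCM5, MCM6 and MCM7 lay between -2.04 and -1.96. The helicase activators CDC45 and GINS2 were lower by more than those 4 subunits, with CDC45 at 4.51 and 27.6 CPM (-2.61) and GINS2 at 12.7 and 61.5 CPM (-2.28) in the cytokine-treated and vehicle libraries. The loader CDC6 was at 2.86 and 13.0 CPM (-2.18), and the licensing inhibitor GMNN at 20.9 and 61.6 CPM (-1.56). The subunits of the ring thus did not share 1 ratio, although they act in 1 complex.

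The 7 genes of polymerases, clamp and Okazaki fragment joining had a median of -1.51. All 7 were at least 2-fold lower, against 7.48% of all measured genes, though POLA1 and DSCC1 were measured through the vehicle library alone. DSCC1, part of a loader that puts PCNA on DNA, was at 1.41 CPM in the cytokine-treated and 8.18 CPM in the vehicle library (-2.54). PCNA was at 43.2 and 123 CPM (-1.51), and FEN1, which trims the flaps of Okazaki fragments, at 14.9 and 45.0 CPM (-1.59). POLA1, the catalytic subunit of polymerase α, had a ratio of -1.78 and its primase partner PRIM1 had -1.13. RFC2, a subunit of the main clamp loader, and POLD3, a subunit of polymerase δ, had -1.47 and -1.13.

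Repair and checkpoint genes covered the whole range of the 40, with a median of -2.19 for 8 genes. BLM, a helicase that dissolves recombination intermediates, was at 0.546 CPM (0.386 to 0.749, 38 UMIs) in the cytokine-treated and 5.27 CPM (4.70 to 5.90, 309 UMIs) in the vehicle library, 9.66-fold lower. EXO1, an exonuclease of mismatch repair and end resection, was at 1.78 and 14.1 CPM (-2.99), and RAD51AP1, a factor of recombination repair, at 5.65 and 40.7 CPM (-2.85). The fork protection gene TIPIN stood at the other end, at 11.2 CPM in the cytokine-treated and 18.3 CPM in the vehicle library (-0.72, -0.85 to -0.58). CLSPN, which carries the checkpoint signal to CHK1, had -2.26, and DTL, which directs a ubiquitin ligase to PCNA-bound proteins, had -2.12. UNG, which removes uracil from DNA, had -1.31, and USP1, which takes ubiquitin off PCNA, had -1.11.

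Of the 10 genes of histone supply and chromatin (median -2.00) 8 were at least 2-fold lower, against 7.48% of all measured genes. Of these CHAF1B was measured through the vehicle library alone. ATAD2, a chromatin ATPase, was at 18.9 CPM in the cytokine-treated and 101 CPM in the vehicle library (-2.42). HELLS, UHRF1 and CDCA7, which act in the upkeep of DNA methylation, had ratios of -2.27, -2.27 and -2.10. NASP, a histone chaperone, was at 39.9 and 80.4 CPM (-1.01), and SLBP, which binds the end of histone mRNA, at 48.5 and 100.4 CPM (-1.05) in the cytokine-treated and vehicle libraries. CASP8AP2, needed for histone gene expression, was at 11.04 and 21.9 CPM (-0.99), and UBR7, a ubiquitin ligase for histone H2B, at 14.1 and 24.9 CPM (-0.82). CHAF1B, a subunit of the assembly factor that deposits new histones behind the fork, had -1.97, and WDR76 had -2.03. The 2 cell cycle regulators were E2F8, a repressor that E2F factors induce, at 1.32 and 7.56 CPM (-2.52), and CCNE2, a cyclin that activates CDK2 at the start of S phase, at 5.47 and 15.003 CPM (-1.45).

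The libraries differed in how many cells were in each phase by the deposited calls. S cells were 10.2% (9.21 to 11.4; 324 cells) of the cytokine-treated and 45.1% (43.3 to 47.0; 1273 cells) of the vehicle cells, G1 cells 88.5% (2799 cells) and 36.6% (1032 cells), and G2 and M cells 1.26% (40 cells) and 18.3% (517 cells). Phases called again here, from these 40 genes and 18 genes of G2 and M phase on cells thinned to 15000 UMIs, put 11.4% of cytokine-treated and 45.2% of vehicle cells in S, 86.7% and 22.6% in G1, and 1.81% and 32.1% in G2 and M, so the shares of vehicle cells in G1 and in G2 and M differed between the calls. These calls rest on scores from S phase genes, and the lists in common use for them hold most of these genes, so differences between phases describe the calls, and cells compared within a phase were chosen in part by these genes. Phases were also called again 40 times on all cells without thinning, with the gene in question left out of the S list. Between 35 and 157 of the 5985 cells changed phase when a gene was left out. The S list still held the other genes of the set, so the S over G1 ratios from these calls were largely fixed by the calls. They are a description and no check of the set. With these calls each of the 40 genes was higher in S than in G1 cells, with its interval above 0, in both libraries, with a median S over G1 log2 ratio of 3.25 (0.59 to 7.67) in cytokine-treated and 2.11 (0.88 to 4.40) in vehicle cells. Across the 40 genes the S over G1 ratio in vehicle cells by the deposited calls and the whole-library ratio had a Pearson r of -0.73 and a Spearman rho of -0.79, a description in which both ratios use the same vehicle counts and in which genes are not replicates.

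**Figure D2:**
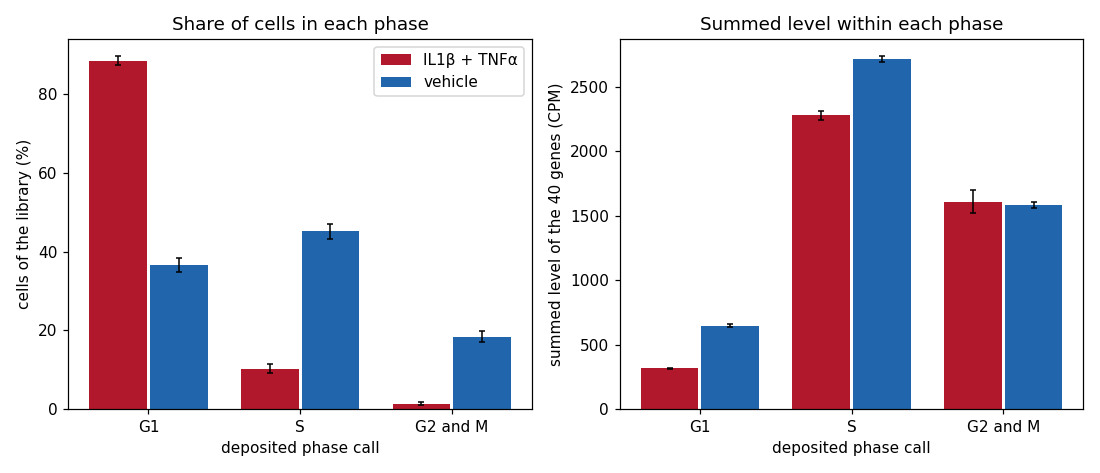
Left, share of cells in each deposited phase with exact 95% binomial intervals, and right, summed level of the 40 genes in CPM within each phase with exact 95% Poisson intervals, in the cytokine-treated (red) and the vehicle library (blue). S cells were 10.2% and 45.1% of the libraries, while the summed level within S cells was 2281 and 2718 CPM in the cytokine-treated and vehicle libraries.

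Both libraries were weighted by the share of the vehicle library's UMIs in each phase (34.2% G1, 46.7% S, 19.1% G2 and M), which is arithmetic and no test. The summed level was then 1480 CPM in the cytokine-treated and 1793 CPM in the vehicle library, 1.21-fold lower, against 3.35-fold without weighting. The 2-fold counts on this scale use the ratio alone, without an interval. The median ratio was then -0.32 (-0.89 to 0.17), and 0 of the 40 genes were at least 2-fold lower, against 1.33% of all genes measured on that scale. With the UMI shares of the phases of the cytokine-treated library as weights the sums differed 1.63-fold, the median was -0.91, and 13 of the 35 genes measured on that scale were at least 2-fold lower, against 3.69% of all measured genes. The size of what remained within phases thus depended on the weights, because the within-phase difference was larger in G1 than in S cells. S cells gave 44.2% of the UMIs of the 40 genes in the cytokine-treated and 70.7% in the vehicle library, and G1 cells 52.2% and 12.3%.

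Within G1 cells the summed level was 315 CPM (311 to 320) in cytokine-treated and 646 CPM (635 to 657) in vehicle cells, 2.05-fold lower. All 40 ratios were below 0, 37 with the whole interval, and their median was -1.56, against -0.15 for all genes measured in G1 cells. Of the 40 genes 31 were measured there and 18 were at least 2-fold lower, against 4.43% of 9005 measured genes, while 0 were at least 2-fold higher, against 4.44%. Nothing is read from this count, since 12 of the 31 were measured through vehicle cells alone, had to be lower to pass and make up 12 of the 18, and of the other 19 genes 6 (MCM3, MCM6, MCM7, FEN1, RRM1 and ATAD2) were at least 2-fold lower. Among the measured genes RRM2 led, at 2.13 CPM in cytokine-treated and 19.4 CPM in vehicle G1 cells (-3.18, -3.48 to -2.90). TYMS followed at 1.36 and 11.8 CPM (-3.11), RAD51AP1 at 1.35 and 10.5 CPM (-2.96), MCM2 at 1.53 and 10.7 CPM (-2.80) and DTL at 1.01 and 6.53 CPM (-2.70), and these 5 genes are among the 12. Of the 19 measured in cytokine-treated cells ATAD2 had the lowest ratio, at 7.16 and 28.7 CPM (-2.00). The smallest differences were those of TIPIN (9.15 and 10.02 CPM, -0.13), UBR7 (13.3 and 14.9 CPM, -0.17) and POLD3 (10.7 and 12.2 CPM, -0.19) in cytokine-treated and vehicle G1 cells, each with an interval that included 0. BLM, with 2 UMIs in cytokine-treated and 23 UMIs in vehicle G1 cells and so not measured there, had the lowest ratio of the 40 (-5.14, -8.27 to -3.12). With phases called again on all cells from all 40 genes the median was -1.34, and 35 intervals lay below 0. With each gene also left out of its own phase calls the median was -1.45, and 37 intervals lay below 0. Cells whose higher phase score lay within 0.05 of 0, the limit between G1 and the other phases, were 0.929% of cytokine-treated and 9.40% of vehicle G1 cells, and without them the median was -1.43 and the count again 18. TMM and median of ratios scaling left 39 and 38 of the 40 ratios below 0.

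Within S cells the difference was small. The summed level was 2281 CPM (2246 to 2316) in cytokine-treated and 2718 CPM (2698 to 2737) in vehicle S cells, 1.19-fold lower, and the median ratio was -0.25, against -0.15 for all genes measured in S cells. Of the 40 genes 34 were below 0, 25 with the whole interval, and 1, RRM2, was at least 2-fold lower, against 2.14% of 9168 measured genes; 0 were at least 2-fold higher, against 3.22%. RRM2 was at 101 CPM (93.6 to 108) in cytokine-treated and 203 CPM (197 to 208) in vehicle S cells, with a ratio of -1.01 (-1.12 to -0.90) that lay at the 2-fold limit and was counted or not according to the scaling. BLM (4.58 and 8.60 CPM, -0.91), E2F8 (6.38 and 11.01 CPM, -0.79), EXO1 (15.5 and 24.8 CPM, -0.68) and UBR7 (20.9 and 32.0 CPM, -0.61) followed. PCNA was at 193 CPM in S cells of each library (interval of the ratio -0.09 to 0.08), and GMNN and NASP had ratios of -0.02 and -0.04. CCNE2 was the only gene of the 40 with an interval above 0, at 30.9 CPM in cytokine-treated and 25.7 CPM in vehicle S cells (0.26, 0.04 to 0.48), and 5 others were above 0 with intervals that included 0. TMM scaling, which adds 0.11 to every S cell ratio, left 30 of the 40 below 0, 18 with the whole interval, and put 5 intervals above 0. E2F1, which drives many of these genes and is not among the 40, was also higher in S cells, at 95.5 CPM in cytokine-treated and 64.0 CPM in vehicle cells (0.58, 0.45 to 0.71), while over whole libraries it was lower, at 13.4 and 38.4 CPM (-1.52). It was picked after its value was seen, from a list of E2F and RB genes of which 19 of the 22 measured in S cells were lower (median -0.36).

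**Figure D3:**
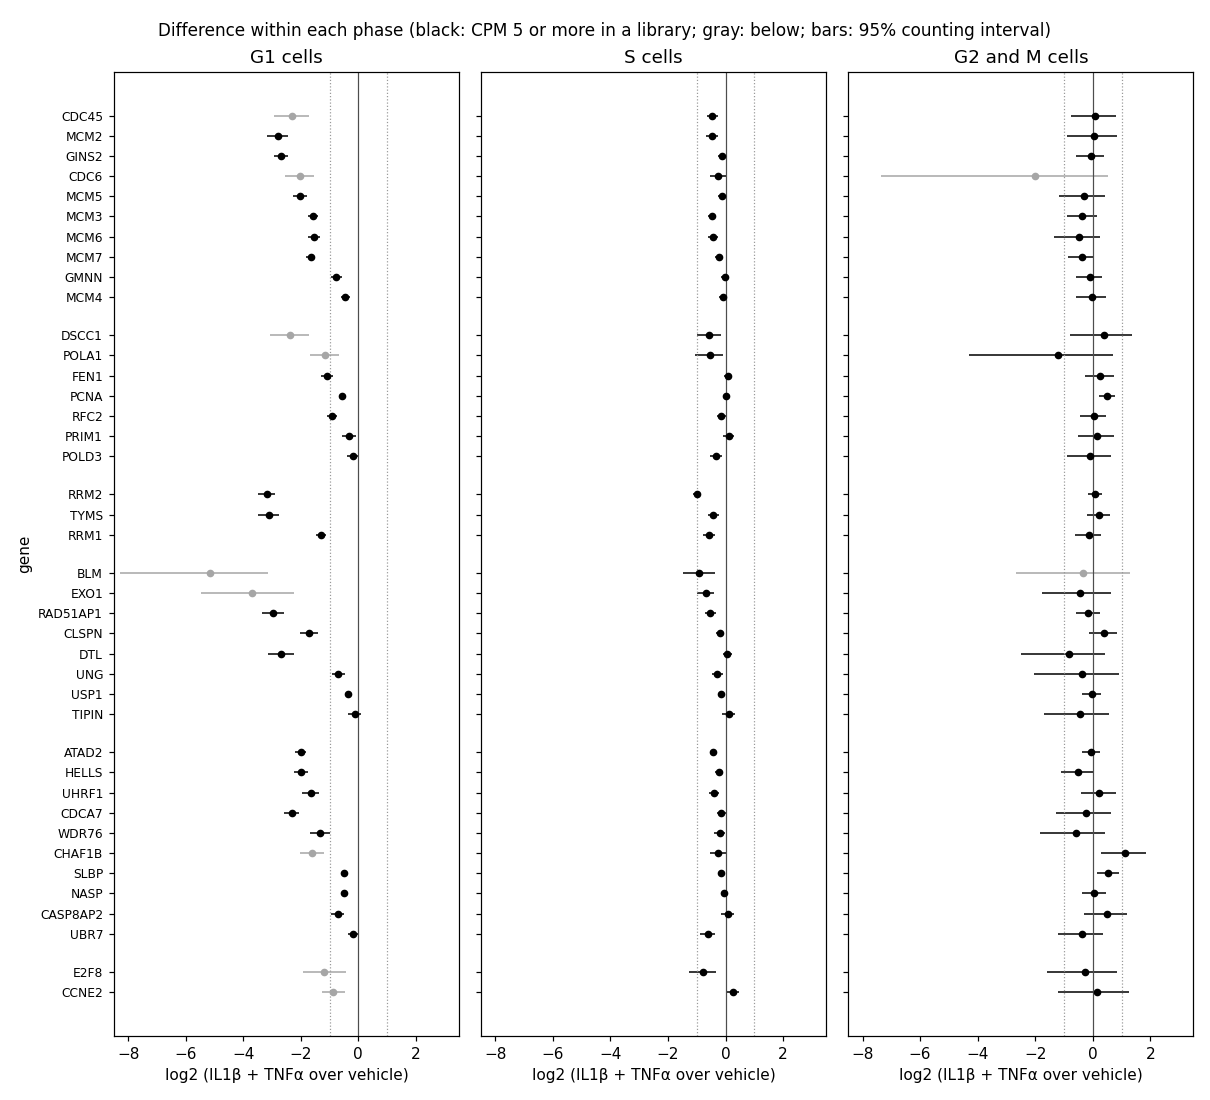
Log2 ratio of cytokine-treated over vehicle cells for each of the 40 genes within G1, S, and G2 and M cells, with exact 95% counting intervals and in the same order in each panel. Black points are measured genes, gray points lie under CPM 5 in both libraries, and dotted lines mark 2-fold. G1 ratios spread down to -3.18 for measured genes, S ratios lie between -1.01 and 0.26, and the wide G2 and M intervals rest on 40 cytokine-treated cells.

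Within G2 and M cells no summed difference was seen, with 1609 CPM (1523 to 1697) in cytokine-treated and 1587 CPM (1564 to 1611) in vehicle cells (0.02, -0.06 to 0.10). Of the 40 genes 38 were measured there, 0 were at least 2-fold lower, against 2.36% of 9318 measured genes, and 1, CHAF1B, was at least 2-fold higher, against 3.7%. CHAF1B was at 20.5 CPM (17 UMIs) in cytokine-treated and 9.47 CPM (106 UMIs) in vehicle cells, and PCNA (150 and 107 CPM, 0.49) and SLBP (79.8 and 55.2 CPM, 0.53) also had intervals above 0. The lowest ratios among measured genes were those of POLA1 (-1.22), DTL (-0.84), WDR76 (-0.58), HELLS (-0.53) and MCM6 (-0.48), each with an interval that included 0. Phases called again on all cells without thinning put 65 cytokine-treated cells in G2 and M. With these calls CHAF1B was at 0.39 (-0.35 to 1.05) and SLBP at 0.16 (-0.15 to 0.45), so these intervals no longer lay above 0. With each gene also left out of its own calls they were at 0.37 (-0.37 to 1.03) and 0.16 (-0.14 to 0.44), while PCNA stayed above 0 at 0.25 (0.02 to 0.47) and 0.26 (0.03 to 0.47). The same calls put 7 and 6 intervals below 0, MCM3 among them, at -0.62 (-1.07 to -0.21) and -0.67 (-1.12 to -0.26), where the deposited calls had put 0 there. By the deposited calls the cytokine-treated side was 40 cells and 827443 UMIs, so a difference under about the width of these intervals was not detectable at this depth.

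Cells also differed in how many of the 40 genes were seen together. Cells were thinned to 15000 UMIs each, which left out 130 cytokine-treated and 236 vehicle cells. The median cytokine-treated cell then had a UMI of 4 of the 40 genes (quartiles 3 and 6) and the median vehicle cell of 15 (9 and 22); without thinning the medians were 6 and 17. Cells with 20 or more of the genes were 5.41% (164 cells) of the cytokine-treated and 32.8% (849 cells) of the vehicle cells, and 60 cytokine-treated cells and 1 vehicle cell had none. In S cells the medians were close, 20 in cytokine-treated and 22 in vehicle cells, while in G1 cells they were 4 and 8. A UMI of RRM2 was seen in 9.00% (8.01 to 10.1) of cytokine-treated and 61.3% (59.3 to 63.1) of vehicle cells, of PCNA in 34.7% and 69.5%, and of SLBP in 46.6% and 69.2%. The material was 1 cell line, with no cell type that should lack these genes, so the share that free RNA gives could not be measured.

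**Figure D4:**
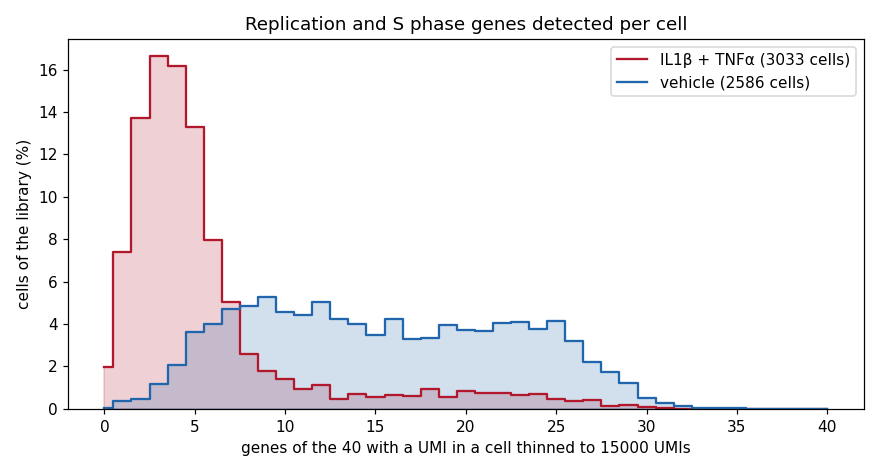
Number of the 40 genes with a UMI in each cell after thinning to 15000 UMIs, as percent of the 3033 cytokine-treated (red) and 2586 vehicle cells (blue) kept. Cytokine-treated cells peak at a few genes, with a median of 4, and vehicle cells spread widely, with a median of 15.

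Cluster numbers came with the files. How they were made from these cells is not given in the sources used here, so levels by cluster are a description. In cluster 2 the 40 genes summed to 2467 CPM in cytokine-treated and 3061 CPM in vehicle cells, the highest of the 6 clusters in both libraries. That cluster held 8.98% of the cytokine-treated and 26.2% of the vehicle cells. In clusters 0, 1, 3 and 4 the sums lay between 300.1 and 425 CPM in cytokine-treated cells and between 1258 and 1490.2 CPM in vehicle cells, and in cluster 5 they were 475 and 873 CPM. The difference was thus smallest in cluster 2 (log2 ratio of the sums -0.31). It was largest in clusters 3 (-2.11, -2.15 to -2.06), 0 (-2.07, -2.11 to -2.02) and 1 (-2.07, -2.12 to -2.02), whose intervals overlapped. These ratios include the phase mix, since 581 of 588 cytokine-treated and 168 of 355 vehicle cells of cluster 3 were in G1. Within G1 cells clusters 3, 0 and 1 had ratios of -1.02, -1.13 and -1.12, and clusters 4 and 5 had -0.91 and -0.66.

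**Figure D5:**
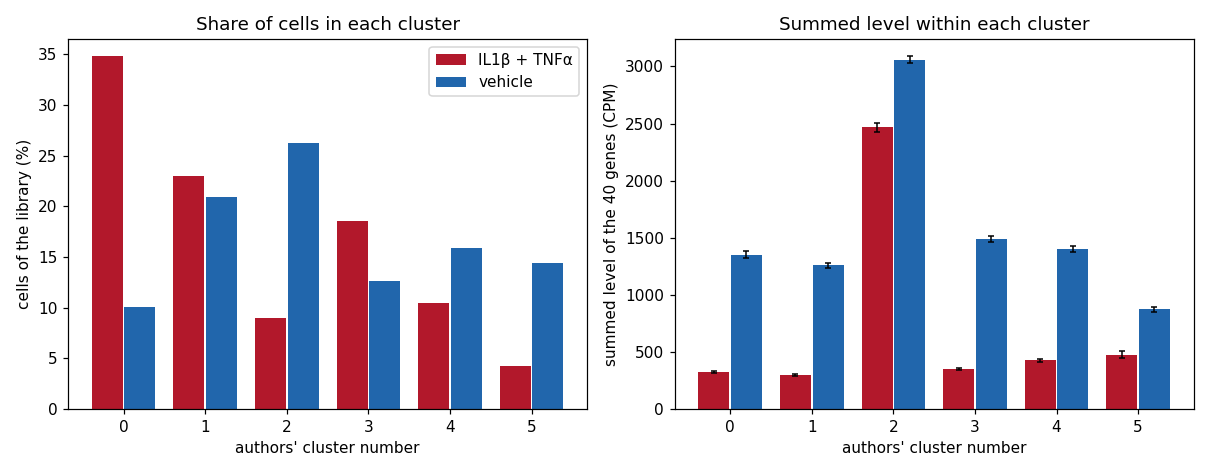
Left, share of the cells of each library in the 6 deposited clusters, and right, summed level of the 40 genes in CPM within each cluster with exact 95% Poisson intervals, in the cytokine-treated (red) and the vehicle library (blue). Cluster 2 has the highest level in both libraries, 2467 and 3061 CPM in cytokine-treated and vehicle cells.

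S cells fell into these clusters in unequal shares: cluster 2 held 78.7% (255 cells) of the cytokine-treated and 42.4% (540 cells) of the vehicle S cells. After this was seen, S cells were split by that cluster. In S cells of cluster 2 the sums were 2541 CPM in cytokine-treated and 3436 CPM in vehicle cells (-0.44, -0.46 to -0.41), with 36 genes below 0. In S cells outside it they were 1270.3 and 2137 CPM (69 and 733 cells; -0.75, -0.82 to -0.68), and 15 of the 40 genes were at least 2-fold lower, against 6.71% of 9253 measured genes. Of the 15 genes 5 reached CPM 5 in vehicle cells alone. The difference over all S cells (-0.25) was thus smaller than in either group of clusters. RRM2 had a ratio of -1.41 (-1.52 to -1.29) in S cells of cluster 2, and outside it 6 UMIs in cytokine-treated and 1461 UMIs in vehicle S cells (-4.57, -6.02 to -3.45). CCNE2 was no longer apart in cluster 2 (0.14, -0.11 to 0.39) or outside it (-0.55, -1.26 to 0.09). The S cell ratio of E2F1 is not given by this split.

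Replication genes outside the 40 had a like pattern. Of 61 listed 57 were measured, with a median ratio of -1.58. Over whole libraries 43 were at least 2-fold lower, against 7.48% of all measured genes, and 0 at least 2-fold higher, against 4.29%. Among them ORC1, the origin recognition subunit that comes and goes with the cell cycle, was at 0.762 CPM in the cytokine-treated and 5.39 CPM in the vehicle library (-2.82). Thymidine kinase TK1 was at 19.3 and 134 CPM (-2.79). ORC1 reached CPM 5 in the vehicle library alone and so had to be lower to be measured. How many other genes of the list did is not given here, so the count of 43 is in part fixed by the limit. TICRR, which helps to start the helicase, had -3.26, RECQL4, a helicase of replication start, had -2.69, the histone chaperone ASF1B had -2.64 and MCM10 had -2.61. Higher in the cytokine-treated library were POLD4, a small subunit of polymerase δ, at 162 and 115 CPM (0.49, 0.45 to 0.54), and ORC4, an origin recognition subunit, at 18.8 and 16.7 CPM (0.17, 0.05 to 0.29). RRM2B, the small reductase subunit used outside S phase, was at 6.60 CPM in the cytokine-treated and 6.11 CPM in the vehicle library, with an interval that included 0 (0.11, -0.09 to 0.31). Within S cells 1 of 57 measured genes of this list (median -0.34) was at least 2-fold lower, against 2.14% of all genes measured there. Of the replication-dependent histone genes, whose mRNA mostly lacks the poly(A) tail by which 3′ kits capture transcripts, 4 were found, of which 3 had higher levels after cytokine treatment, and the 4 ratios had a median of 0.59. HIST1H1C was at 95.1 CPM in the cytokine-treated and 64.8 CPM in the vehicle library (0.55), HIST1H2AC at 60.3 and 39.3 CPM (0.62) and HIST1H2BC at 27.9 and 13.4 CPM (1.05), the only 1 of the 4 at least 2-fold higher. Within S cells HIST1H2AC and HIST1H2BC had ratios of 0.74 and 0.73, HIST1H1C was near 0 with an interval that included it (-0.14 to 0.15), and the 4 ratios had a median of 0.37. The gene that was lower, HIST1H4C, a histone H4 gene named after its value was seen, was at 113 and 1114 CPM over whole libraries (-3.30) and was lower within S cells as well, at 486 CPM in cytokine-treated and 1523 CPM in vehicle S cells (-1.65, -1.70 to -1.60).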

How the data were processed

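The authors counted UMIs with Cell Ranger 3.1.0 on GRCh38 and filtered cells in Seurat 4.0.4 (under 50000 UMIs, over 3000 and under 5000 genes, under 15% mitochondrial UMIs, genes seen in 10 cells or more); a limit on genes per cell can remove dividing cells. No doublet caller was run here, doublets were not removed, and a removal by the authors is not given in the sources used here. The authors deposited raw UMI counts, and per cell a mitochondrial percent, the score for S and for G2/M phase, a phase call, a cluster number and the library. The gene lists behind the deposited score and the cluster method were not given in the sources used here. UMIs were summed per library, phase and cluster (Python 3.11.15, numpy 2.4.6, scipy 1.17.1, pandas 2.3.3), with exact Poisson, conditional binomial and Clopper-Pearson intervals, and tested on simulated data. Phases were called again with scanpy 1.11.5 on cells thinned to 15000 UMIs, from the 40 genes and 18 G2 and M genes. They were also called on all cells without thinning, with all 40 genes and with each gene left out in turn. Alternatives used edgeR 4.0.16 and DESeq2 1.42.0 factors, other limits on CPM, fold, mitochondrial share and depth, and other weights. The genes, lists and named genes (the largest and smallest differences over whole libraries and in each phase) were chosen with earlier results of these data known; E2F1 and HIST1H4C were picked after their values were seen. No per-sample column was left unused.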

Additional observations from a re-analysis of the deposited data

How the results depend on the processing

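No paired analysis was possible because each condition was 1 library. None of the 40 genes reversed a called direction; of 1398 gene values under the alternatives 1252 stayed within the counting error and 146 moved. Over whole libraries the median ratio was -1.83 with TMM and -1.81 with median of ratios scaling. Of 40 measured genes 20 passed a 4-fold limit, against 2.30% of all measured genes. Of these 20 genes 7 were measured through the vehicle library alone, and 13 of the other 31 passed. In G1 cells 5 of the 12 genes at CPM 20 or more were counted as lower, against 2.89% of all genes at that level. All 5 were measured through vehicle cells alone. At a 4-fold limit 9 of 31 genes passed in G1 cells, against 1.08%. Of these 9 genes 8 were measured through vehicle cells alone and had to be lower, and 1 of the other 19 passed. In S cells the count was 0 with TMM scaling, with median of ratios scaling, with means of per-cell CPM, without the 5% of cells with the most UMIs, at a 4-fold limit and without cells near the phase limit, and 5 of 40 at 1.5-fold, against 10.9% of all measured genes; in S cells outside cluster 2, an alternative chosen after seeing the data, it was 15, with a median of -0.79. In G2 and M cells the count was 2 with phases called again on thinned cells and 1 with the gene left out of the calls. The share of all measured genes under those 2 sets of calls is not given here. The phase-standardised median was -0.91 with the weights of the cytokine-treated library. Phases called again put 86.7%, 11.4% and 1.81% of cytokine-treated and 22.6% and 32.1% of vehicle cells in the phases, as given above. The genes detected per cell were 0 in cytokine-treated and 5 in vehicle cells at 2 UMIs or more, and 2 and 8 after thinning to 7500 UMIs. The limits, scalings and subsets change these counts by their construction; other causes were not tested. With 1 culture per condition, differences between cultures and effects of treatment cannot be told apart, and 40 cytokine-treated G2 and M cells limit the depth there.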

Other observations

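Regulators of the E2F and RB pathway had their own order. Of 23 listed 21 were measured over whole libraries, with a median ratio of -1.34. Of these 14 were at least 2-fold lower, against 7.48% of all measured genes, and 0 at least 2-fold higher, against 4.29%. Cyclin A2 (CCNA2) works with CDK2 in S phase. It was at 2.47 CPM in the cytokine-treated and 31.7 CPM in the vehicle library (-3.68, -3.92 to -3.46). CCNA2 reached the limit for a measured gene in the vehicle library alone and so had to be lower to be measured. How many other genes of the list did is not given here, so the count of 14 is in part fixed by the limit. MYBL2, a transcription factor of proliferating cells, was at 23.05 and 199 CPM (-3.11). RB1 itself was at 25.1 CPM in the cytokine-treated and 33.6 CPM in the vehicle library (-0.42), and its relative RBL2 at 20.7 and 19.7 CPM (0.07, -0.04 to 0.19). Within S cells 0 of 22 measured genes of this list were at least 2-fold lower, against 2.14% of all genes measured there. Of the 22 genes 19 had ratios below 0, with a median of -0.36 for the list.

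The 18 genes of G2 and M phase were all at least 2-fold lower over whole libraries, against 7.48% of all measured genes, with a median of -3.13. How many of the 18 reached the limit for a measured gene in the vehicle library alone is not given here. Such genes had to be lower to be measured, so the count of 18 may be in part fixed by the limit. Within S cells 9 of 18 were at least 2-fold lower, against 2.14% of all genes measured there, with a median of -0.98. Nothing is read from this count, since phase calls also rest on a score from G2 and M genes. The calls made here used these 18 genes, and the list behind the deposited score is not given. S cells may thus have been chosen in part by these genes, and their share in cluster 2 differed between the libraries. In S cells TOP2A, a topoisomerase of late S and G2 phase, had a ratio of -1.85 (-2.18 to -1.54).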
